A study of Mus musculus with 72 samples.

Results

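The mRNAs of 10 mRNA export factors were followed across the subcellular fractions of mouse embryonic stem cells: 6 subunits of the THO complex (Thoc1, Thoc2, Thoc3, Thoc5, Thoc6 and Thoc7), the helicase Ddx39b, the adaptors Alyref and Sarnp, and the export receptor Nxf1. They were chosen by symbol from the 51826 genes of the deposited count files, and all 10 were found and passed the filters on low values in every comparison described here. The cells were of the E14TG2a line, grown in 2i + LIF medium and not otherwise treated. They were labeled with 4-thiouridine (4sU), a uridine analog that new RNA takes up and that is read as a T to C change (T2C) after alkylation, which is the principle of SLAM-seq. Independently passaged cultures, numbered as replicates 1 to 6, were labeled for 15, 20, 30, 40, 60 or 120 min and split into nucleus, cytosol and membrane fractions, with whole cells beside them. Each of the 4 gave 18 libraries of poly(A)-selected RNA. The 8 libraries labeled for 120 min in replicates 3 and 4 were set aside, as the study did, and entered only the comparison of 20 with 120 min below and a setting with all 72 libraries. This left 64 libraries and 16 per fraction. Of these, replicates 1 and 2 hold the 15, 20 and 30 min libraries, replicates 3 and 4 those of 20, 40 and 60 min, and replicates 5 and 6 those of 60 and 120 min, so pairs of replicates and labeling times can be told apart only at 20 and 60 min. The labels give 500 µM 4sU up to 40 min and 100 µM at 60 and 120 min, while the methods of the study point to the higher dose also for the longer times of replicates 3 and 4.

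A mature mRNA leaves the nucleus as a protein-bound particle. The TREX complex, made of the THO subunits, the DEAD-box helicase Ddx39b and adaptors such as Alyref and Sarnp, is loaded on the RNA during transcription and splicing, and hands it to Nxf1, which carries it through the nuclear pore. Nxf1 mRNA is a textbook case of an export factor transcript with a retained intron, which is intron 10, and RNA that keeps this intron carries a constitutive transport element that Nxf1 itself can bind.

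Between 13185351 and 52975732 reads per library fell on genes. The 8 stem cell markers checked, among them Pou5f1 and Nanog, were all above 1 TPM (reads per exonic length, scaled within the library) in each fraction, where 2 to 4 of 10 markers of differentiated or feeder cells were. Nuclear RNAs such as Malat1 summed to 113 to 1083 TPM in the nucleus and to 26.9 to 115 TPM in the cytosol, and membrane markers to 79464 to 243178 TPM in the membrane fraction and to 608 to 4072 TPM in the cytosol. Whole-cell replicate 6 went against its labels: the median share of new RNA over genes was 0.380 in the library labelled 60 min and 0.176 in the library labelled 120 min, against 0.221 and 0.394 in replicate 5. Results on labeling therefore rest on the 3 fractions, and whole-cell shares are given only where named. All values are relative to the RNA of a library, so fewer cells with an mRNA and less of it per cell cannot be told apart.

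Intron 10 of Nxf1 differed between fractions. The gene lies at chr19:8757073-8770922 on the plus strand (GRCm38) and its transcript Nxf1-201 has 21 exons and 20 introns. Intron 10 spans chr19:8765032-8766796, is 1765 bases long and lies between exon 10 (110 bases) and exon 11 (37 bases). In the annotation it is covered whole by a long exon of another transcript, Nxf1-209, at chr19:8764922-8766833, which reads through the intron and has its stop codon inside it. For this reason the deposited intron counts of Nxf1 leave intron 10 out and its reads were counted as exonic. Both ends of the intron and its stop codon are shown because they mark what is spliced out or kept. Capitals mark intron bases in the first 2 sequences and the stop codon in the last, on the plus strand from 5′ to 3′.
5′ end of intron 10, chr19:8765022-8765051: gctatatcagGTCAGTTGTAGCCTCTGTCT
3′ end of intron 10, chr19:8766777-8766806: TTCTGTCCCGTTCTTGACAGcgccattcgc
stop codon of Nxf1-209, chr19:8765260-8765289: tctccttctttctTGAacacagccttttct

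T counts, the number of read bases over T positions, were divided by the 476 T positions of intron 10 and set against the same density in exons 10 and 11. This measure was chosen after the data had been seen. In the nucleus the density of intron 10 was between 33.6 and 77.5% of that of its flanking exons, with a median of 57.1% and a mean of 54.0% ± 14.6 (SD, n = 16). In the cytosol it was between 2.16 and 30.3%, with a median of 18.4% and a mean of 15.98% ± 9.85 (SD, n = 16). In no library of the cytosol did it reach the lowest nuclear value. The membrane fraction gave 7.02 to 37.6% with a mean of 17.4% ± 7.81 (SD, n = 16), which overlaps the low end of the nucleus, and whole cells gave 11.9 to 60.3% with a mean of 36.9% ± 17.1 (SD, n = 16). The nucleus exceeded the cytosol by 38.0 percentage points and the membrane fraction by 36.6 (2-sided permutation test, p = 2e-05 for both, the smallest the resamples can give, and adjusted p = 0.00011 over the 27 tests run on Nxf1). The permutation tests between fractions shuffled libraries as if they were independent. They take no account of libraries that share a replicate or a culture, so their p-values measure the spread between libraries and not between replicates. Cytosol and membrane differed by -1.45 points, less than the spread between libraries (permutation p = 0.65, adjusted p = 0.65). The nucleus exceeded whole cells by 17.1 points (permutation p = 0.005, adjusted p = 0.009), but this came from replicates 1 and 2 (10.6 points) and 3 and 4 (35.9 points). In replicates 5 and 6 the difference was -1.45 points (exact permutation p = 0.43, adjusted p = 0.46). In that pair the nuclear markers, RNAs such as Malat1, summed to 113 to 175 TPM in the nucleus and to 145 to 294 TPM in whole cells. The nucleus of replicates 1 and 2 gave 470 to 680 TPM and that of replicates 3 and 4 gave 245 to 1083 TPM. Whether this bears on the smaller differences in replicates 5 and 6 was not tested.

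The difference from the nucleus was present in every pair of replicates, with a different size. Nucleus exceeded cytosol by 39.7 points in replicates 1 and 2, by 49.2 in replicates 3 and 4 and by 18.7 in replicates 5 and 6 (exact permutation tests, p = 0.0022, 0.0022 and 0.029, the smallest these sizes allow; adjusted p = 0.0042, 0.0042 and 0.044). The cytosol itself ran from 2.16 to 6.93% in replicates 3 and 4, against 22.1 to 30.3% in replicates 1 and 2 and 15.9 to 21.0% in replicates 5 and 6. Signs of nuclear RNA in the cytosolic libraries moved along with these values. The nuclear markers summed to 26.9 to 57.1 TPM in the cytosol of replicates 3 and 4, to 82.5 to 115 TPM in replicates 1 and 2 and to 55.8 to 79.0 TPM in replicates 5 and 6, and the all-gene median of the log2 intron to exon ratio there was -4.42, -2.87 and -3.43. Their part in the level of intron 10 in the cytosol was not tested. Within replicates 3 and 4, where these signs in the cytosol were lowest, the membrane fraction exceeded the cytosol. The cytosol minus membrane difference was -5.31 points (exact permutation p = 0.0022, adjusted p = 0.0042). The membrane libraries of these replicates held more of the nuclear markers than their cytosol, at 71.1 to 130 TPM. Their all-gene median of the log2 intron to exon ratio was -4.17. The part of nuclear RNA in this difference was not tested.

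**Figure D1:**
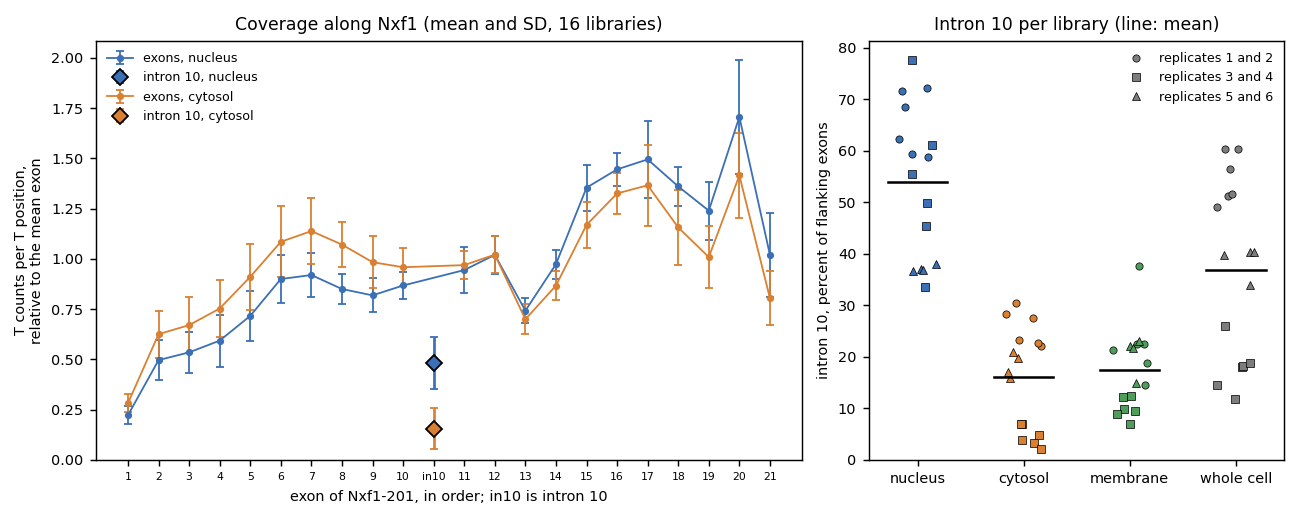
Left, T counts per T position over the 21 exons of Nxf1-201 and over intron 10, relative to the mean exon, as mean and SD of 16 nuclear and 16 cytosolic libraries; intron 10 stood at 0.48 of the mean exon in the nucleus and at 0.16 in the cytosol. Right, the density of intron 10 as percent of its flanking exons in each of the 64 libraries by fraction, with the mean as a line and symbols for pairs of replicates; no cytosolic library reached the lowest nuclear one, 33.6%.

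Intron 10 also stood apart from the other introns of the gene. It held 25855 to 276017 T counts per nuclear library, where the other introns, 9759 bases in all, held 4463 to 42696. Per kilobase, intron 10 had 27.8 to 46.2 times the T counts of the other introns in the nucleus and 7.64 to 127 times in the cytosol. It made up 20.6 to 39.6% of the exonic T counts of Nxf1 in the nucleus and 1.99 to 23.3% in the cytosol, so the read counts of the gene hold it to a different extent in each fraction. The log2 difference of nucleus against cytosol was taken in T counts, scaled to the exonic T counts of the library. It was 1.195 for the whole gene, 0.86 for the spliced exons and 2.82 for intron 10. Each gave p = 2e-05 and adjusted p = 0.00011 (permutation test, 16 against 16 libraries). The median over 12180 genes was 0.20 on this scale. The spliced exons are the exons of the gene without intron 10, and their counts include RNA that keeps this intron. Intron 10 had on average 54.0% of the density of its flanking exons in the nucleus and 15.98% in the cytosol. The value of 0.86 is therefore not that of spliced RNA alone, whose difference was not tested. Spliced exons overlapped between nucleus and cytosol, while the whole gene and intron 10 did not.

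At 60 min in the nucleus intron 10 held less new RNA than the other introns of the gene. Over all times it held more than the spliced exons in the cytosol and the membrane fraction, a difference that did not pass the test in the nucleus. The spliced exons take in RNA that keeps intron 10, most of all in the nucleus. Their shares therefore do not set RNA with the intron apart from RNA without it. The share of new RNA, which is T2C over T divided by the conversion rate of the library, was 0.257 ± 0.0385 (SD, n = 4) in intron 10 at 60 min in the nucleus, 0.914 ± 0.105 in the other introns and 0.179 ± 0.039 in the spliced exons. At 60 min the cytosol gave 0.258 ± 0.0625 for intron 10 against 0.0707 ± 0.0502 for the spliced exons (SD, n = 4), and the membrane fraction 0.259 ± 0.0446 against 0.0885 ± 0.0333. The means of intron 10 lay close together in the 3 fractions, and those of the spliced exons did not. At 120 min intron 10 was at 0.640 and 0.686 in the 2 nuclear libraries, at 0.574 and 0.763 in the cytosol and at 0.596 and 0.727 in the membrane fraction, and the spliced exons were at 0.363 and 0.374, 0.253 and 0.254, and 0.247 and 0.258. Intron 10 exceeded the spliced exons in 4 of 4 libraries of each fraction at 60 min (exact sign-flip permutation test, p = 0.12, which is the lower limit with 4 libraries; adjusted p = 0.14). Over all times the log2 difference of the shares was 1.22 in the cytosol (higher in 12 of 16 libraries, exact sign-flip permutation p = 0.0011, adjusted p = 0.0042), 1.09 in the membrane fraction (14 of 16, p = 0.0018, adjusted p = 0.0042) and 0.22 in the nucleus (11 of 16, p = 0.09, adjusted p = 0.13). The sign-flip tests took libraries as independent, though several share a replicate, and pooled unlike labeling times. In the cytosol intron 10 and the spliced exons had mean shares of 0.0130 and 0.0126 at 15 min (n = 2). At 40 min the means were 0.0669 and 0.0115 (n = 2). Cytosolic shares of intron 10 rest on 1911 to 29126 T counts per library and on few T2C counts at short times.

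As reads scaled to 1000000 reads on genes (RPM), Ddx39b and Nxf1 were higher in every nuclear library than in any cytosolic one. Thoc3, Thoc7, Alyref and Sarnp were lower in every nuclear library. How many of all genes stand apart in this way was not counted. The test between fractions was edgeR's quasi-likelihood test over 16093 genes with Benjamini-Hochberg adjustment, and calls were made where the adjusted p was under 0.05 and the log2 difference exceeded 0.5 in either direction. Its main fit took libraries as independent, although several come from the same replicate or culture. The p-values therefore measure the spread between libraries and not between replicates. Thoc1, Thoc2 and Nxf1 were called higher in the nucleus, where 42.5% of all genes tested were, and Thoc3, Thoc7, Alyref and Sarnp lower, where 21.2% were. These are 6843 genes higher and 3409 lower, a split that went to 6559 and 5441 with the culture as a replicate block, to 5725 and 5135 with all 72 libraries and to 5889 and 5349 with counts summed per replicate. The block changed the call of none of the 10. The median of all genes stood at 0.29 in this comparison and that of the 10 members at 0.06.

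The THO subunits did not move as a group. Thoc1 and Thoc2 are core subunits of the complex, and Thoc2 is its large scaffold. Thoc1 gave 82.1 to 190 RPM in the nucleus (median 130) and 51.5 to 107 in the cytosol (median 63.2), a log2 difference of 0.82 ± 0.13 (SE, adjusted p = 5.67e-08), and was higher in the nucleus in 16 of 16 pairs matched by replicate and labeling time, which come from 6 replicates, although the ranges overlap. Its difference dropped to 0.44, under the threshold, when all 72 libraries or counts summed per replicate were used, fits in which the median gene lay near 0. Thoc2 gave 59.8 to 231 RPM in the nucleus (median 155) and 36.9 to 93.3 in the cytosol (median 78.3), a log2 difference of 0.99 ± 0.19 (SE, adjusted p = 5.24e-06), with 15 of 16 such pairs higher in the nucleus. Thoc3 and Thoc7, smaller subunits, went the other way. Thoc3 gave 55.6 to 85.7 in the nucleus (median 73.2) and 105 to 149 in the cytosol (median 135), a log2 difference of -0.93 ± 0.08 (SE, adjusted p = 3.42e-17). Thoc7 gave 32.7 to 56.4 in the nucleus (median 41.8) and 61.5 to 101 in the cytosol (median 79.0), a log2 difference of -0.997 ± 0.109 (SE, adjusted p = 1.04e-12). In both, every nuclear library lay below every cytosolic one. Thoc5 and Thoc6 were not called, at 0.02 ± 0.14 (adjusted p = 0.914) and 0.10 ± 0.07 (adjusted p = 0.182).

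Among the partners of THO, Sarnp had the lowest nuclear level against the cytosol of all 10 mRNAs. It encodes a small nucleic acid binding protein that joins Ddx39b and Alyref. Its RPM values were 46.8 to 126 in the nucleus (median 95.2) and 163 to 279 in the cytosol (median 209), a log2 difference of -1.26 ± 0.12 (SE, adjusted p = 1.21e-14). Alyref, the adaptor that links TREX to Nxf1, gave 122 to 175 in the nucleus (median 155) and 196 to 327 in the cytosol (median 216), a log2 difference of -0.69 ± 0.12 (SE, adjusted p = 3.8e-07). This fell to -0.47 without replicate 3 and to -0.44 in replicates 5 and 6 alone, under the threshold. Reads of Alyref could be shared with its near copy Alyref2, and how the counting split them was not tested. Ddx39b gave 385 to 452 in the nucleus (median 414) and 312 to 361 in the cytosol (median 334). These ranges do not overlap, but the log2 difference of 0.27 ± 0.07 (SE, adjusted p = 0.000601) was under the threshold and at the median of all genes. Nxf1 gave 221 to 482 in the nucleus (median 362) and 142 to 177 in the cytosol (median 165), a log2 difference of 1.06 ± 0.08 (SE, adjusted p = 4.46e-18), in which the reads of intron 10 take part.

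**Figure D2:**
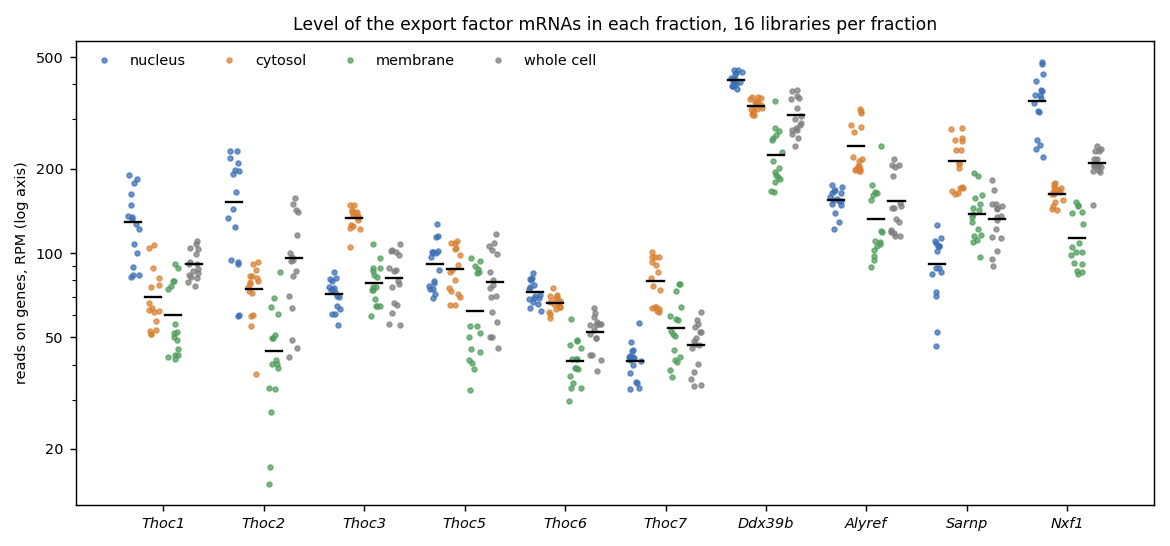
Reads on genes in RPM (log axis) of the 10 mRNAs in the 16 libraries of each fraction, with the mean as a black line. Nuclear libraries of Ddx39b and Nxf1 lie above all cytosolic ones, and those of Thoc3, Thoc7, Alyref and Sarnp lie below them.

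The membrane fraction differed less from the cytosol. In RPM the membrane value was below that of the cytosol in 16 of 16 such pairs for 9 of the mRNAs and in 15 of 16 for Thoc1. With scaling by library size only, the median of all genes was itself at -0.47 in log2. How many of all genes were lower in every pair was not counted. After scaling by the trimmed mean of M-values only Alyref was called, at -0.59 ± 0.12 (SE, edgeR adjusted p = 1.74e-05), where 12.9% of all genes were called lower and the median gene stood at -0.16. Alyref lost the call without replicate 3 (-0.47) and in replicates 1 and 2 alone (-0.39). The other 9 lay between -0.46 for Thoc3 and 0.06 for Thoc1. With library size in place of that scaling 8 of the 10 were called lower, Thoc1 and Thoc5 being the exceptions, so the number of export factors lower at the membrane depends on the scaling. Over all genes the split went from 3874 higher and 2068 lower to 3400 and 7295.

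Levels were compared between genes per length, as the median over the exons of the first-numbered transcript of T counts per T position, scaled to 1000000 exonic T counts of the library. In the nucleus Ddx39b came first at 1.00 ± 0.0876 (SD, n = 16), above every library of the next gene. Sarnp (0.579 ± 0.143), Alyref (0.549 ± 0.0822) and Nxf1 (0.403 ± 0.115) followed, with overlapping ranges from one to the next, then Thoc7 (0.21 ± 0.0423), Thoc6, Thoc1, Thoc5 and Thoc3 (0.141 ± 0.0219), again overlapping, and last Thoc2 at 0.0381 ± 0.019, below every library of Thoc3. In the cytosol Sarnp stood first at 1.33 ± 0.262 and overlapped with Ddx39b (0.975 ± 0.0772), which overlapped with Alyref (0.975 ± 0.212), and Thoc2 was again last at 0.0279 ± 0.00932. Nxf1 was 4th in the nucleus and 6th in the cytosol, after Thoc7 and Thoc3. Poly(A) libraries can favour the 3′ end, which bears on the long Thoc2. The log2 ratio of T counts in the 3′ over the 5′ part of its exons was 3.57 ± 0.64 in the nucleus (SD, n = 16), against -0.18 to 2.03 in the nucleus for the other 9 mRNAs. These T counts were not divided by T positions, so the ratio takes in the lengths of the exons as well as coverage.

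Levels were compared between 20 and 120 min in replicates 3 and 4, the only replicates with both times, where the 120 min libraries are those set aside elsewhere. By edgeR 0 of 10 mRNAs were called in any fraction, where the called share of 18415 genes was 0.635% for nuclear, 0.0815% for cytosolic, 0.076% for membrane and 0.0977% for whole-cell libraries. At an unadjusted p under 0.05 there were 3 in the nucleus and 0 in each of the others. These were Thoc3 at 0.55 ± 0.17 (SE, adjusted p = 0.132), Thoc5 at 0.46 ± 0.19 (adjusted p = 0.28) and Nxf1 at -0.42 ± 0.14 (adjusted p = 0.163). Thoc3 in the nucleus passed with the replicate number as a block (0.56, edgeR adjusted p = 0.016) and with DESeq2 (0.59, adjusted p = 0.0288). Over all genes in the nucleus 85 were called higher and 32 lower, against 74 and 74 with library size only. Each time had 2 libraries per fraction, so differences of the size of those given here could not be told from the spread by the edgeR test without the block. In simulated nuclear libraries, made with the mean spread over genes, it recovered 4 of 100 genes changed 2-fold and 72 of 100 changed 4-fold. The absence of calls therefore does not show that levels stayed the same.

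The share of new RNA was compared between these mRNAs and other genes in each place. It does not measure age alone. The study reports that exons far from the 3′ end are labeled later, and RNA in the cytosol has first spent time in the nucleus. The shares were not corrected for this, and the genes run from 5.27 kb (Thoc6) to 126 kb (Thoc2). At 60 min, the longest time with 4 main libraries, the shares of exons were compared with the median gene of the same library on the log2 scale by limma, with a pseudocount of 0.01 and at least 400 T counts per library. The conversion rates of these libraries fell apart by replicates, 5.83 to 8.29% in replicates 3 and 4 and 2.38 to 3.53% in replicates 5 and 6 over the 3 fractions, so both are given where they differ. None of the 10 was called higher in any fraction, where 24.1% of all genes were in the nucleus, 31.8% in the cytosol and 32.3% in the membrane fraction. In the nucleus 3 were called lower, with 25.5% of all genes. In the cytosol 8 were, with 31.4% of all genes, and in the membrane fraction 6, with 30.5%. The median of the 10 was -0.37 in the nucleus, -1.197 in the cytosol and -0.89 in the membrane fraction, and that of all genes -0.02, -0.04 and -0.06.

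Sarnp had the smallest nuclear share of new RNA, and a small one everywhere. At 60 min in the nucleus its shares were 0.0879, 0.0397, 0.0677 and 0.0784 in replicates 3 to 6, against 0.203 to 0.287 for the median gene, a log2 difference of -1.72 ± 0.14 (SE, limma adjusted p = 0.000708). It was at 0.139 and 0.142 after 120 min, the lowest of the 10, and the cytosol and the membrane fraction gave -1.48 ± 0.12 and -1.37 ± 0.09 at 60 min (adjusted p = 0.000564 and 0.000259). Thoc5 was low in all 3 fractions as well, at -1.11 ± 0.12 in the nucleus (adjusted p = 0.0013), -1.28 ± 0.13 in the cytosol and -1.08 ± 0.15 at the membrane. Thoc7 was called in the 3 fractions too (-0.63 ± 0.16, -1.16 ± 0.11 and -1.34 ± 0.11), but its nuclear call was lost without replicate 4 (-0.55), 5 (-0.61) or 6 (-0.58).

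Thoc1 and Thoc6 behaved differently between the nucleus and the other fractions. Thoc1 was near the median gene in the nucleus at 60 min, with shares of 0.244, 0.180, 0.261 and 0.234 in replicates 3 to 6, and far below it in the cytosol, with 0.0253, 0.0300, 0.0831 and 0.0877. Thoc6, a WD-repeat subunit, had 0.232, 0.161, 0.173 and 0.140 in the nucleus and 0.0236, 0.0162, 0.0570 and 0.0404 in the cytosol, the lowest cytosolic share of the 10 against the median gene (-1.82 ± 0.12, SE, limma adjusted p = 0.000454). The difference between fractions was tested itself, an analysis added after the data had been seen. Against the median gene, cytosol minus nucleus was -1.39 ± 0.16 for Thoc6 (adjusted p = 0.00141), -1.23 ± 0.16 for Thoc1 (adjusted p = 0.00163) and -0.94 ± 0.19 for Ddx39b (adjusted p = 0.007), and these 3 were called lower, with 12.8% of 12507 genes, while 20.1% were called higher and none of the 10 was. Membrane minus nucleus was called lower for Thoc6 (-1.26 ± 0.22), Thoc1 (-1.08 ± 0.12) and Thoc7 (-0.73 ± 0.20), with 10.9% of 13142 genes, while 20.7% were called higher and again none of the 10. In replicates 3 and 4 alone none of these differences passed the test, and in replicates 5 and 6 alone only Thoc1 and Thoc6 in the cytosol did. The Thoc7 call was also lost without replicate 3 (-0.56), 5 (-0.81) or 6 (-0.71).

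Ddx39b had shares of 0.252, 0.175, 0.191 and 0.162 in the nucleus at 60 min (-0.31 ± 0.11, adjusted p = 0.0616, not called) and of 0.0250, 0.0285, 0.102 and 0.0898 in the cytosol (-1.23 ± 0.15, called at an adjusted p of 0.00158). Nxf1 was at -0.30 ± 0.10 in the nucleus, under the threshold on size, and was called in the cytosol at -0.81 ± 0.20 (adjusted p = 0.0172). That call was lost without replicate 4 (-0.76) and in replicates 5 and 6 alone (-0.48), and its exons include intron 10. Thoc2 was called in the cytosol only (-0.85 ± 0.20, adjusted p = 0.0136), with -0.23 ± 0.19 in the nucleus, and its difference between these 2 fractions was not called (-0.64 ± 0.29, adjusted p = 0.117), but passed with a replicate block (-0.64, adjusted p = 0.0375).

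Alyref and Thoc3 lay above the median gene in the nucleus at 20 min and below it at 120 min. In the nucleus at 20 min the share of Alyref was 0.0614 to 0.187 with a mean of 0.118 and that of Thoc3 0.0413 to 0.194 with a mean of 0.121, and both were above the median gene in 4 of 4 libraries. The other 8 were below it in at least 3 of 4, with means of 0.0166 for Thoc6 to 0.0672 for Thoc2. At 120 min the order was different. Alyref was at 0.214 and 0.229, Thoc3 at 0.325 and 0.332, and the median gene at 0.429 and 0.464, while Thoc1 reached 0.388 and 0.451, Thoc2 0.427 and 0.432, and Nxf1 0.424 and 0.448. The 20 min libraries come from replicates 1 to 4 and the 120 min libraries from replicates 5 and 6, so time cannot be told apart from replicate here, and no test was made. In the cytosol Alyref also led at 15 to 30 min, above the median gene in 8 of 8 libraries, and was below it in 4 of 4 at 60 min. At 60 min Alyref was not called in any fraction (-0.43 ± 0.20 in the nucleus, -0.49 ± 0.11 in the cytosol and -0.42 ± 0.13 at the membrane), and Thoc3 was at -0.07 ± 0.10, 0.13 ± 0.11 and 0.32 ± 0.12. The nuclear value of Alyref rests on 1 library: replicate 3 had a share of 0.324, the other 3 had 0.133 to 0.154, and without it Alyref was called at -0.64.

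**Figure D3:**
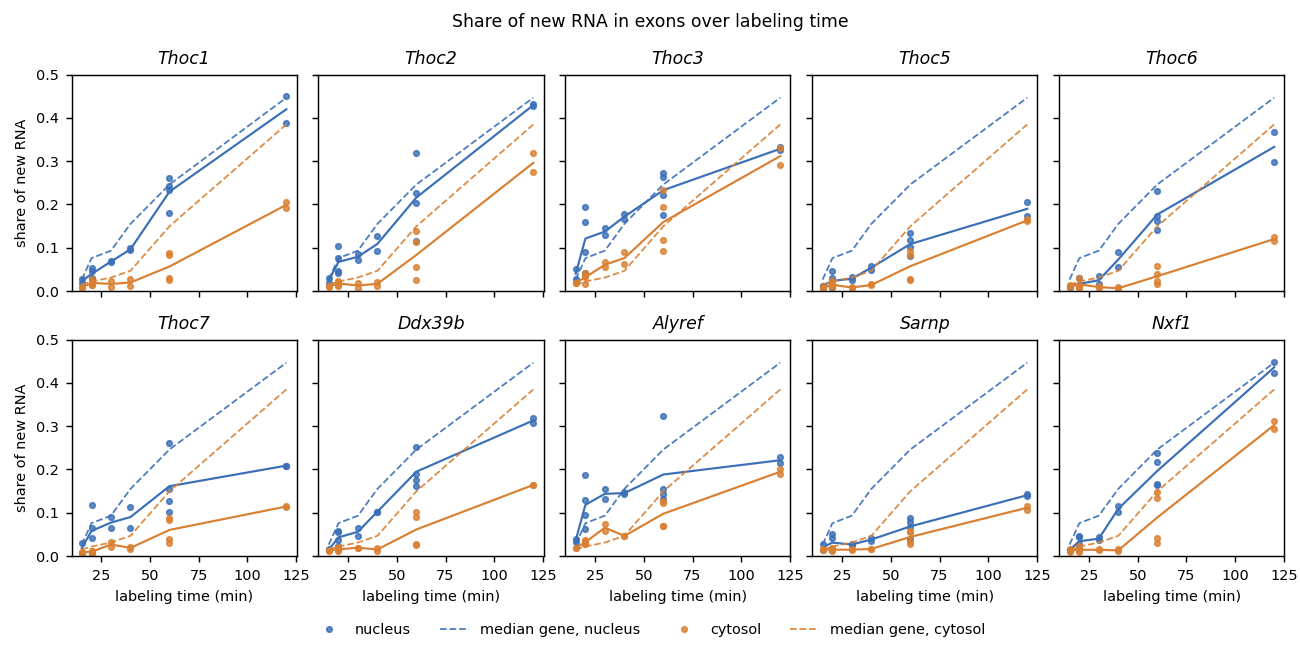
Share of new RNA in exons against labeling time (min) for the 10 mRNAs in the nucleus and the cytosol, with points for libraries, solid lines through the means and dashed lines for the mean of the library medians over all genes. Alyref and Thoc3 run above the dashed nuclear line at 20 min and below it at 120 min, and Sarnp stays lowest, at 0.139 and 0.142 in the nucleus at 120 min.

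Introns turn over faster than exons, and their share of new RNA in the nucleus separated the members as well. At 60 min 1 of 10 was called lower than the median gene, with 14.6% of 11468 genes, and none higher, with 0.27%. Over all genes 31 were higher and 1669 lower, against 341 and 1233 with centring on the library mean. The one called was Ddx39b, with a share of 0.510 ± 0.041 (SD, n = 4) at 60 min and a log2 difference of -0.75 ± 0.05 (SE, limma adjusted p = 0.00142). It was below the median gene in 4 of 4 libraries at 20 min (0.141 ± 0.049, SD) and still in both at 120 min (0.806 and 0.818). Thoc6 (-0.38 ± 0.06, adjusted p = 0.00802) and Thoc1 (-0.23 ± 0.07, adjusted p = 0.0412) lay below the median gene by less than the threshold on size. On the other side Alyref (0.37 ± 0.07, adjusted p = 0.012), Thoc3 (0.30 ± 0.06, adjusted p = 0.0144) and Sarnp (0.20 ± 0.05, adjusted p = 0.0321) lay above it, also by less than that threshold. Sarnp thus had introns above the median gene and exons below it in the same nuclear libraries. Introns of Alyref, Thoc3 and Sarnp were above the median gene in 4 of 4 libraries at 20 min, with means of 0.569, 0.648 and 0.579. Shares over 1 occur at late times because the T2C ratio is divided by an estimated conversion rate.

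**Figure D4:**
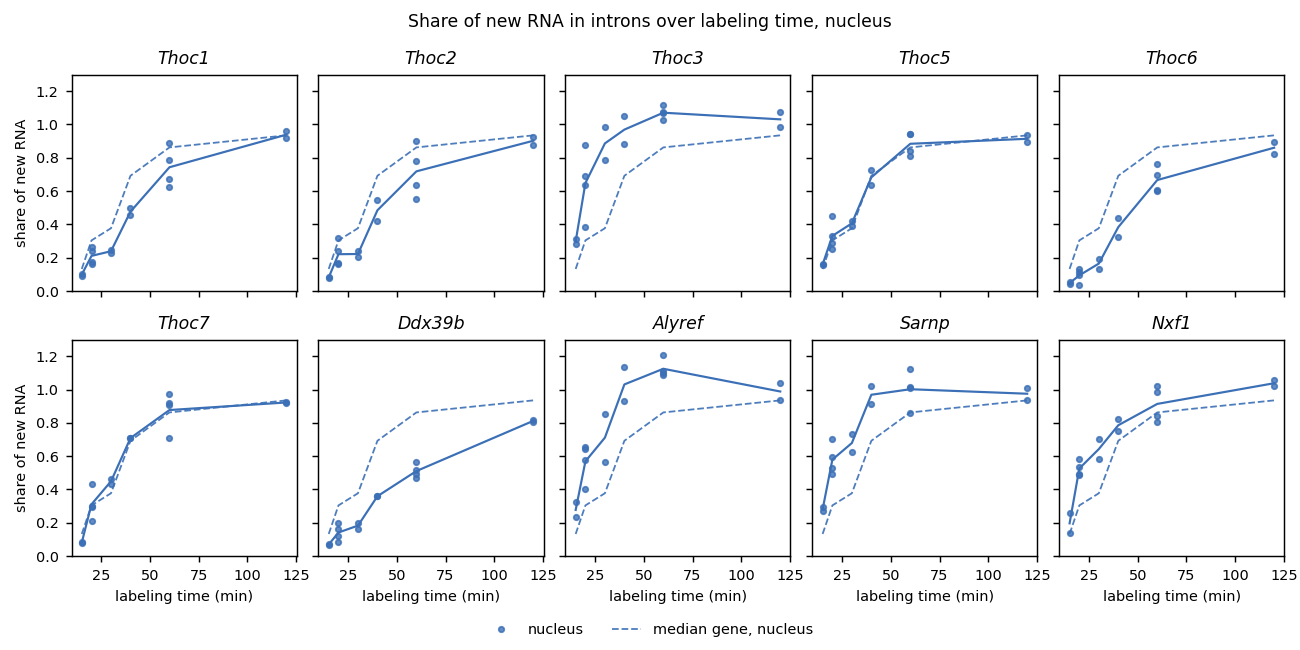
Share of new RNA in introns in the nucleus against labeling time (min) for the 10 genes, with points for libraries, a solid line through the means and a dashed line for the mean of the library medians over all genes. Ddx39b and Thoc6 run below the dashed line at each time, and Alyref, Thoc3 and Sarnp above it; intron 10 of Nxf1 is not part of its values.

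The T counts of introns over those of exons fell from the nucleus to the cytosol for all 10 genes (limma, each called), as for 90.1% of 12180 genes, and likewise to the membrane fraction, with 94.1%. The log2 differences to the cytosol ran from -2.87 ± 0.21 for Alyref to -1.64 ± 0.23 for Thoc2, around a median of -2.51 where that of all genes was -2.26. Those to the membrane fraction ran from -2.96 ± 0.21 for Alyref to -1.51 ± 0.23 for Thoc2, around -2.23 and -2.28. In level, Ddx39b had the highest ratio in the nucleus, at -0.18 ± 0.48 (SD, n = 16) on the log2 scale, the 82.1st percentile of genes. It was at -2.40 ± 1.18 in the cytosol, and at -1.99 ± 0.67 in the membrane fraction, the 82.7th percentile. A stretch of its intron 1 that another annotated transcript counts as exon, chr17:35241870-35243112, had 2.65% ± 1.05 (SD, n = 16) of the density of exon 2 in the nucleus and 0.664% ± 0.372 in the cytosol.

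Nxf1 had the lowest ratio of the 10 in every fraction. It ran from -4.96 to -3.90 in the nucleus with a median of -4.33 and a mean of -4.39 ± 0.29 (SD, n = 16), the 3.54th percentile, and from -7.06 to -5.99 in the cytosol with a mean of -6.39 ± 0.33, the 6.91st percentile. These values leave intron 10 out, so by the deposited intron counts Nxf1 is among the genes with the fewest intronic counts, while intron 10 alone held more T counts in each nuclear library than all its other introns. Over the means of the 4 fractions, the genes with the nearest pattern of this ratio were Zfp953, at a Euclidean distance of 0.186, Txnip (0.298), Pnn (0.325), Zfp687 (0.364) and Mrps17 (0.368). Alyref (-2.88 ± 0.54) and Thoc3 (-2.87 ± 0.66) had low nuclear ratios as well, and the other 7 were between -2.08 for Thoc6 and -0.18 for Ddx39b.

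**Figure D5:**
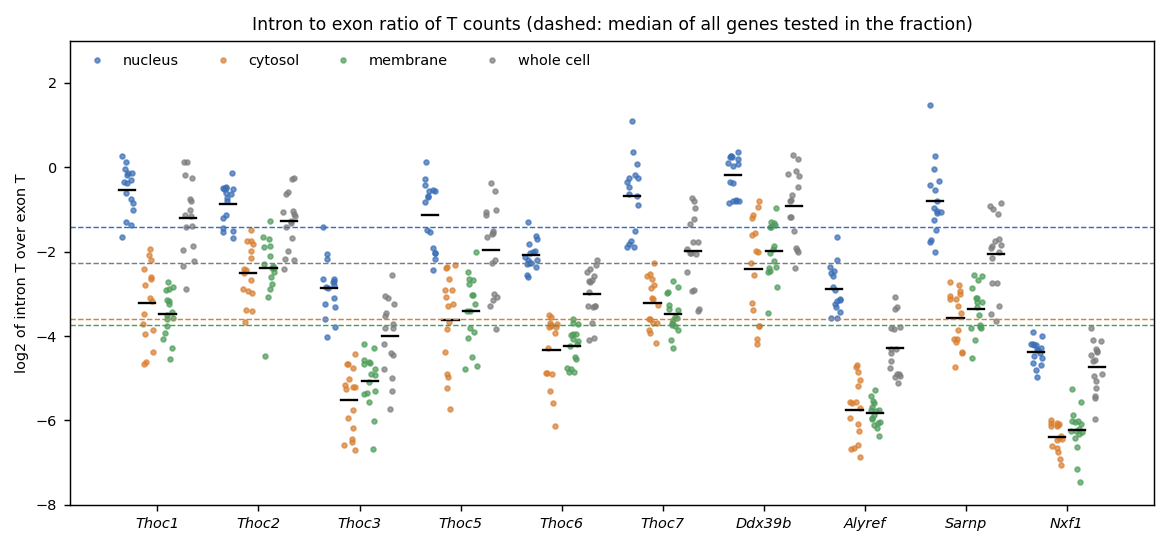
Log2 ratio of intron to exon T counts of the 10 genes in the 16 libraries of each fraction, with the mean as a black line and the median of all 12180 genes of each fraction as a dashed line. Nxf1 lies lowest in each fraction, at -4.39 in the nucleus, with intron 10 left out, and Ddx39b highest in the nucleus at -0.18.

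Other genes of mRNA export, 39 found of a list of adaptors, cap-binding, exon junction, TREX-2 and pore-side factors, were compared in the same fits. Of 36 tested, 9 were called higher in the nucleus and 17 lower, with a median of -0.42. The exportin Xpo1 (1.93 ± 0.10), Leng8 (2.79 ± 0.19) and Nxf3 (1.48 ± 0.27) were highest, and the centrin Cetn2 (-1.32 ± 0.12) and the exon junction proteins Rbm8a (-1.30 ± 0.12) and Magoh (-1.21 ± 0.12) lowest (log2, SE). In the membrane fraction 0 were called higher than in the cytosol and 7 lower, among them Srsf1 (-0.84), Srsf3 (-0.70), Srsf7 (-0.69), Fyttd1 (-0.65), Zc3h18 (-0.63) and Cetn3 (-0.55). Between 20 and 120 min 1 of 37 was called, Nupl2 in the nucleus (-0.77, edgeR adjusted p = 0.0316).

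In shares of new RNA at 60 min the other export genes fell on both sides of the median gene. In the nucleus 5 of 37 were called higher (highest Nupl2 at 0.90, Alyref2 at 0.85 and Zc3h11a at 0.60) and 14 lower (lowest Nxf3 at -2.34, Sem1 at -1.56 and Nxt2 at -1.47). In the cytosol 5 of 36 were called higher (Alyref2 at 1.43, Nxt1 at 1.07 and Nup98 at 1.06) and 17 lower (Sem1 at -1.81, Srrt at -1.81 and Cetn3 at -1.41). At the membrane 7 of 36 were called higher (Nupl2 at 1.49, Zc3h11a at 1.36 and Alyref2 at 1.07) and 16 lower (Srrt at -1.69, Sem1 at -1.63 and Magohb at -1.46). The 10 members were never called higher, but whether they differ from this list was not tested. Cytosol minus nucleus was called higher for 3 of 36 (Nxt2 at 1.41, Nup98 at 1.10 and Xpo1 at 0.97) and lower for 11 (Srsf1 at -1.19, Srrt at -1.14 and Zc3h18 at -0.92), and membrane minus nucleus for 6 (Nxt2 at 1.59, Nup98 at 0.93 and Zc3h11a at 0.73) and 7 (Srrt at -1.02, Gle1 at -0.94 and Srsf1 at -0.94). Nuclear introns were called for none of 33, and the intron to exon ratio fell for 35 of 35 in both comparisons, most for Srsf1 (-4.27 in the cytosol and -4.71 at the membrane) and least for Zc3h11a (-0.63 and -0.65).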

How the data were processed

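RNA of 64 libraries entered the analysis. The other 8, labeled for 120 min in replicates 3 and 4, entered only the comparison of 120 with 20 min and an alternative with all 72 libraries. The authors deposited raw counts of reads per gene (HTSeq) without normalization, and raw counts of T positions and T2C mutations for exons and for the introns of each gene, made from paired reads aligned with STAR to GRCm38. They also deposited the conversion rate of each library as a fraction, and the ratio of T2C over T divided by that rate, which was recomputed here as the share of new RNA. The submitters' processing notes name STAR 2.7.6, HTSeq 0.11.1 and RSEM 1.3.3. Rows naming no gene took 30.4 to 48.8% of the counts and were left out of library sizes.

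Fractions and times were compared with edgeR 4.0.16 (quasi-likelihood test, trimmed mean of M-values, filter on low counts), with DESeq2 1.42.0 as an alternative. Shares and intron to exon ratios were tested with limma 3.58.1 over all genes with at least 400 exonic T counts (100 for introns), with pseudocounts of 0.01 and 1, and single values with permutation tests in scipy 1.17.1. Calls were made below 0.05 in the adjusted p and beyond 0.5 in the log2 value. The scripts were tested on simulated data. Exon and intron borders and sequences came from Gencode M21 on GRCm38, while the study's release was M14. The members and lists were chosen with earlier results of these data known. Besides the 10 members, the 3 highest and 3 lowest called genes of the export list and the 5 genes nearest to Nxf1 were named. No pair of libraries agreed within sampling noise. Per the study's methods the fractions of a culture were extracted in sequence from the same cells, so libraries of the same replicate and time are paired. The main fits by edgeR and limma did not use this pairing and took libraries as independent. Deviations of paired libraries from the fraction means, over 9437 genes, correlated at 0.527 to 0.857 between membrane and cytosol and at -0.0675 to 0.588 between nucleus and cytosol. Counting error limits the shares at short labeling times. An exon share at 60 min rests on at least 18039 T counts of a member, but few of them are converted. Shares of introns and of intron 10 can rest on fewer T counts. Alternatives were other scalings, filters, pseudocounts and centrings, a replicate block, and leaving out replicates or pairs of them.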

Additional observations from a re-analysis of the deposited data

Results flagged for a closer look

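In the nucleus at 60 min, replicate 3 stood apart from the other 3 libraries in the exon share of Alyref, at 0.324 against 0.133 to 0.154. Of 43 groups of 4 libraries checked in this way, only this 1 had such a library. Chance gives such a library in about 1 of 20 groups, so 1 among 43 is no more than chance would give.

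Against the median gene, the exon shares of new RNA at 60 min differed between fractions for several members by a test of the difference itself (limma, 4 against 4 libraries). Cytosol minus nucleus was -0.94 for Ddx39b (adjusted p = 0.007), -1.23 for Thoc1 (adjusted p = 0.00163) and -1.39 for Thoc6 (adjusted p = 0.00141), where 12.8% of all genes were called lower and 20.1% higher. Membrane minus nucleus was -1.08 for Thoc1 (adjusted p = 0.00127), -1.26 for Thoc6 (adjusted p = 0.00424) and -0.73 for Thoc7 (adjusted p = 0.0227), where 10.9% of all genes were called lower and 20.7% higher.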

How the results depend on the processing

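Of 1400 values of members under another setting, 1332 kept their direction and their side of the threshold, 30 fell below it, 38 rose past it and 0 reversed. Over all genes, membrane against cytosol went from 3874 higher and 2068 lower to 3400 and 7295 (10695 in all) with library size only. Labeling for 120 against 20 min had few calls: 117 in the nucleus became 332 without the filter, 1044 with the replicate block, 11 with the fraction alone, 406 with DESeq2 and 9 to 10 without 1 replicate. In the cytosol 15 became 117, 105, 0, 59 and 0 to 1, in the membrane fraction 14 became 57, 43, 1, 35 and 0 to 1, and in whole cells 18 became 99, 91, 95, 53 and 0 to 0. In separate fits, nuclear exon shares gave 6907 calls with all 4 replicates, 3684 in replicates 3 and 4 alone and 7186 in replicates 5 and 6 alone. Nuclear intron shares gave 1700, 15 and 670, with 31 higher and 1669 lower in the main fit and 341 and 1233 with centring on the library mean. Cytosol minus nucleus shares went from 4108 to 2457 to 2780 without 1 replicate, to 0 in replicates 3 and 4 alone and 1183 in replicates 5 and 6 alone, and membrane minus nucleus from 4155 to 2655 to 3140, 0 and 0; fewer libraries enter these fits. Without 1 replicate in turn, nucleus against cytosol gave 9590 to 10663 calls, membrane against cytosol 5614 to 7895, exon shares 6074 to 6784, 7630 to 8156 and 8039 to 8233 in nucleus, cytosol and membrane, intron shares 1433 to 1548, and the intron to exon ratio 10547 to 11156 and 11262 to 11500. The excess of Nxf1 intron 10 in the nucleus ran from 33.0 to 40.8 points over the cytosol and from 32.9 to 39.6 over the membrane fraction.

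The correlation of deviations was over 0.1 in 16 of 16 pairs of membrane and cytosol libraries and in 13 of 16 pairs of nucleus and cytosol. With the culture as a replicate block, 12000 genes were called between nucleus and cytosol, 6470 between membrane and cytosol, and 11093 and 11590 for the intron to exon ratio in cytosol and membrane. Under a block Thoc3 passed between 20 and 120 min in the nucleus (0.56) and Thoc2 in cytosol minus nucleus shares (-0.64), and no other call of a member changed. The cause of these shifts was not tested. Depth limits the shares of intron 10 in the cytosol and of introns at short times.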
